A study of Mus musculus with 4 samples.

Results

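The annexin family was described here in the stomach RNA-seq counts of *Atp4b-cre;MycOE* and wild type (WT) mice. Annexins are cytosolic proteins that bind acidic phospholipids, such as phosphatidylserine, when calcium rises, through a conserved core of repeated domains. Their N-terminal tails differ and carry the binding sites of partners, many of them small calcium-binding proteins of the S100 family. In epithelia annexins take part in membrane trafficking, membrane repair, the cortical cytoskeleton and, for annexin A1, the control of inflammation.

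The 10 genes are *Anxa1* to *Anxa8*, *Anxa10* and *Anxa11*, of 46095 gene rows in the table. Members were taken by name, and the family was chosen by its fold changes between these same mice. The differences between genotypes below are therefore given as a description of the family, with standard errors and without p-values for its members.

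All mice were 12 weeks of age on a C57BL/6 background, with 2 libraries per genotype. In *Atp4b-cre;MycOE* mice (MYC-KI in the sample labels) Cre recombinase from the promoter of *Atp4b*, the beta subunit of the gastric proton pump, turns on human *c-Myc* from 1 floxed allele (*Myc fl/+*) in the parietal cell lineage. The WT mice were *Myc fl/fl* littermates and therefore also carried the floxed allele. The labels give the tissue as stomach and name no region of it. Bulk tissue was sequenced, so for every gene below fewer cells of a type and less RNA per cell cannot be told apart. The labels number the libraries and do not say whether each is a separate animal, so p-values measure only the spread between these libraries. The transgenic pair differed far beyond counting error, with a chi-square per degree of freedom of 97.9 over genes against 28.9 for the WT pair.

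The 4 libraries held 30260305 to 41463647 counts. Mouse *Myc* was counted 1062 and 759 times in WT and 735 and 1091 times in *Atp4b-cre;MycOE* libraries, and this row cannot check the genotype because the transgene is human. Counts of *Atp4b* itself were 87583 and 69469 in WT against 1301 and 2310 in the transgenic libraries. WT replicate 2 had 17846 counts of *Xist*, the RNA of the inactive X chromosome, against 85 to 201 in the other 3 libraries, and 5 counts of the Y-linked *Ddx3y* against 1861 to 2623, so it alone has the female pattern and the WT libraries come from different animals. Values without this library are given beside the members that differ most.

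The gene names and the transgenic counts of the deposited table are out of register, and the annexin rows are displaced as a block. When the transgenic counts are assigned in row order to the names sorted by character code, each of the 12 annexin rows of the table takes counts from 44 rows further down. The counts of *Anxa8*, for example, stand beside *Apba2*, and those of *Anxa10* beside *Ap4e1*. Over the 59 rows around the annexin block, annexins left out, Pearson's r between the genotypes in log2(count + 1) was 0.184 as deposited and 0.981 after the re-assignment. As deposited *Anxa4* and *Anxa8* have 0 counts in both transgenic libraries, and all 10 members were called lower, beside 41.5% of the 22083 genes tested in that table. Every value below uses the re-assigned counts unless the table as deposited is named. The transgenic counts of *Myc*, *Atp4b*, *Xist* and *Ddx3y* given above are re-assigned too.

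Promoter sequences are shown for 3 members. *Anxa8* and *Anxa1* are those with the largest higher levels in *Atp4b-cre;MycOE* mice, and *Anxa10* is the most abundant annexin in this tissue. They are from RefSeq for GRCm38.p6, cover the 250 bases before the annotated start, 5′ to 3′ on the coding strand, and have matches to a TATA box or an AP-1 motif in capitals. *Anxa8* lies on the plus strand at chr14:34085729-34085978, *Anxa1* on the minus strand at chr19:20390672-20390921 and *Anxa10* on the minus strand at chr8:62123194-62123443. RefSeq starts can differ from those of GENCODE vM21, the source of the gene spans below, and the *Anxa1* bases lie within its GENCODE span.
Anxa8: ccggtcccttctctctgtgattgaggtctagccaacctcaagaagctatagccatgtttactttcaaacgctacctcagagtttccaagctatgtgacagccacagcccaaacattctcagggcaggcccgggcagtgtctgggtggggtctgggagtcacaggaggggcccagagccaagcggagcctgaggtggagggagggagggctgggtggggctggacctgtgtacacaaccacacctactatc
Anxa1: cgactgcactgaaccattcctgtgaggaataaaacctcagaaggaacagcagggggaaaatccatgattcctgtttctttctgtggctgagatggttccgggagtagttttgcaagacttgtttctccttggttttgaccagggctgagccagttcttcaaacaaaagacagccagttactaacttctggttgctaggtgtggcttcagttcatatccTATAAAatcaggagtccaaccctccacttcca
Anxa10: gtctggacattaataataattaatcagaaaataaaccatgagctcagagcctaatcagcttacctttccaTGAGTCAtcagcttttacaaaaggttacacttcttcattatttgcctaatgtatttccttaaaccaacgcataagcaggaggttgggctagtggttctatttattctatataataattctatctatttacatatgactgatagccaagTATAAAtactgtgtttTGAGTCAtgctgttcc

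Promoters of 8 members, in 10 windows of 300 bases (250 before to 50 after the start), were matched, with a pair of overlapping windows for *Anxa7* and a pair of separate ones for *Anxa4*. *Anxa3* and *Anxa6* had no entry. Both strands were searched for the E-box that MYC binds with its partner MAX, spelled CACGTG. The TATA box was searched as TATAAA. The AP-1 motif was searched as TGANTCA, and no match overlapped another. The E-box letters were in 1 of the 10 windows, at position -113 of one *Anxa7* start, beside 7.15% of 32851 mouse promoters of this length. None of the windows of *Anxa8*, *Anxa1* or *Anxa10* holds them, which says only that these letters are not in these bases. A TATA box was in 3 of the 10 windows (13.6% of all promoters), at -32 in both *Anxa1* and *Anxa10* and at -17 in *Anxa2*. The AP-1 motif was in 2 of the 10 windows (7.81% of all promoters), at -180 and -16 in *Anxa10* and at -95 in *Anxa2*. The *Anxa10* window had a GC content of 34.3% and the *Anxa8* window one of 57.3%, with a median of 52.7% over all promoters.

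Annexin A8, a protein of late endosomes and of the actin-bound membrane, had the largest difference of the family. Its gene spans chr14:34085981-34100571 on the plus strand of mm10 (GRCm38). *Anxa8* had 229 and 125 counts in the WT libraries and 4796 and 5403 in the *Atp4b-cre;MycOE* libraries. On the scale of normalized CPM, counts relative to library size after TMM scaling between libraries, these are 6.82 and 4.48 in WT and 141.4 and 121.0 in transgenic mice. Both transgenic libraries lay far above both WT libraries. The mean went from 5.65 ± 1.66 (SD, n = 2) to 131.2 ± 14.5 normalized CPM (SD, n = 2), a log2 fold change of 4.53 (standard error 0.25) or 23.1-fold. Without WT replicate 2, the library with the female pattern, the log2 fold change of *Anxa8* was 4.26, and over all 4 ways of leaving out a library it lay between 4.26 and 4.87. The gene *A630023A22Rik* overlaps *Anxa8* on the opposite strand and the use of strand in counting is not given in the sources used here. It was counted 6 and 3 times in WT against 19 and 39 times in the transgenic libraries, far less often than *Anxa8*. Noncoding genes also overlap *Anxa1*, *Anxa2*, *Anxa4* and *Anxa11* on the opposite strand, and for these members too reads of both strands cannot be told apart.

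Annexin A1, an inhibitor of inflammation that is released by leukocytes and epithelia and acts through formyl peptide receptors, was the next among the members with higher levels. *Anxa1* (chr19:20373428-20390944, minus strand) had 3899 and 2884 counts in WT against 5335 and 11114 in *Atp4b-cre;MycOE* mice. In normalized CPM the libraries were at 116.2 and 103.4 in WT and at 157.3 and 248.8 in transgenic mice. The genotypes did not overlap, but the transgenic libraries differed 1.58-fold from each other, with replicate 2 higher. The log2 fold change was 0.89 (standard error 0.24), from a mean of 109.8 ± 9.05 (SD, n = 2) to one of 203.0 ± 64.7 (SD, n = 2). Without transgenic replicate 2 the log2 fold change of *Anxa1* was 0.52, without transgenic replicate 1 it was 1.18, and without WT replicate 2 it was 0.80.

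Annexin A6, which carries a duplicated annexin core and binds cholesterol-rich and plasma membranes, went the other way. *Anxa6* (chr11:54979108-55033445, minus strand) had 3809 and 3199 counts in WT against 1618 and 3103 in *Atp4b-cre;MycOE* mice. These are 113.5 and 114.7 normalized CPM in WT, which differed by very little, and 47.7 and 69.5 in transgenic mice. Both transgenic libraries were below both WT libraries. The mean of 114.1 ± 0.83 (SD, n = 2) in WT stood against 58.6 ± 15.4 (SD, n = 2), a log2 fold change of -0.96 (standard error 0.20). That of *Anxa6* was -1.26 without transgenic replicate 2, -0.71 without transgenic replicate 1 and -0.96 without WT replicate 2.

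**Figure D1:**
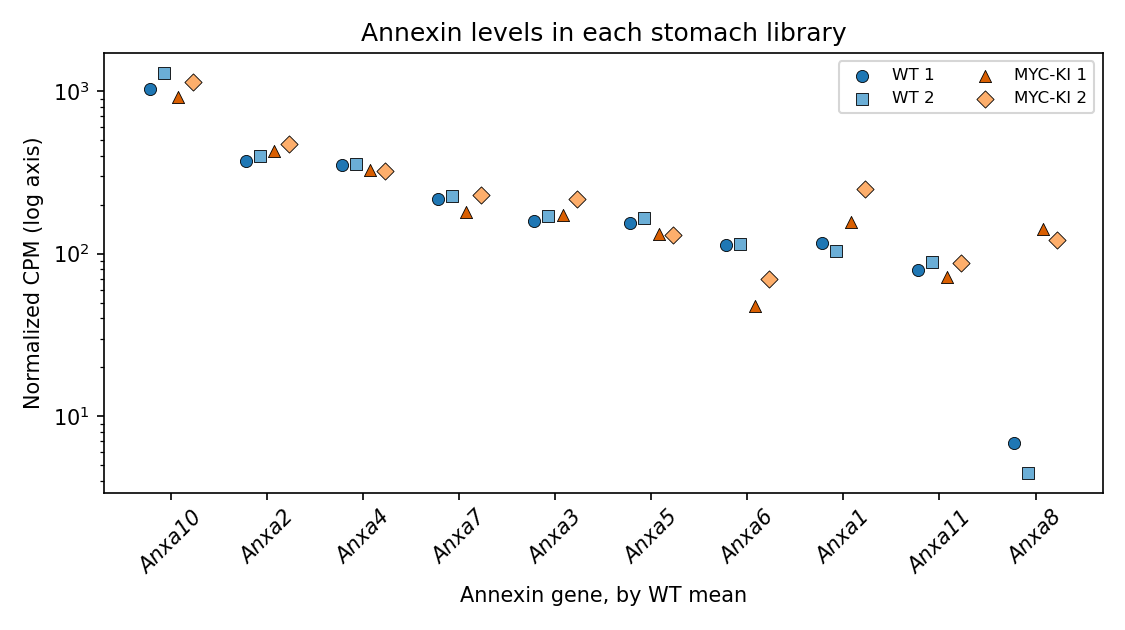
Normalized CPM (log axis) of the 10 annexin genes in each of the 4 libraries, 1 point per library, genes ordered by their WT mean. *Anxa8* goes from 6.82 and 4.48 in WT to 141.4 and 121.0 in transgenic mice, and *Anxa10* lies highest in every library.

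The remaining 7 members differed by less than 0.3 on the log2 scale after TMM scaling with all 4 libraries. Annexin A2, which with S100A10 forms a tetramer that links membranes and actin and binds plasminogen, was at 374.6 and 397.7 normalized CPM in WT and at 427.6 and 474.1 in *Atp4b-cre;MycOE* mice. The *Anxa2* libraries did not overlap, and the log2 fold change was 0.22 (standard error 0.098). *Anxa3* had 159.2 and 171.6 normalized CPM in WT and 173.8 and 217.0 in transgenic mice, which is a log2 fold change of 0.24 (standard error 0.14), with the lower transgenic library close to the upper WT library. The difference in *Anxa3* was smaller than the gap between the transgenic libraries, and its log2 fold change was 0.072 without transgenic replicate 2 and 0.39 without transgenic replicate 1. With scaling by library size those of *Anxa2* and *Anxa3* were 0.45 and 0.46.

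Annexin A5, known for its use as a probe of phosphatidylserine on dying cells, was somewhat lower in *Atp4b-cre;MycOE* mice. *Anxa5* had 154.8 and 165.4 normalized CPM in WT and 131.4 and 131.1 in transgenic mice, which is a log2 fold change of -0.29 (standard error 0.080). *Anxa4*, a gene of secretory and absorptive epithelia, had 350.2 and 357.6 in WT and 326.6 and 324.3 in transgenic mice, which is a log2 fold change of -0.12 (standard error 0.078). The libraries of *Anxa4* and of *Anxa5* did not overlap, and their values within a genotype lay close together. When libraries were scaled by their size instead, which moves the median over all tested genes from 0.0122 to 0.235, the log2 fold change of *Anxa4* turned to 0.10 and that of *Anxa5* stood at -0.063.

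In *Anxa7*, *Anxa10* and *Anxa11* the genotypes overlapped. *Anxa7*, which promotes the fusion of secretory granules, had 216.8 and 227.2 normalized CPM in WT and 180.2 and 230.7 in transgenic mice. *Anxa11*, whose product ties RNA granules to lysosomes, had 79.3 and 88.8 in WT and 71.5 and 87.4 in transgenic mice. *Anxa10*, a marker of gastric epithelial differentiation, had 1026 and 1295 in WT and 926 and 1139 in transgenic mice. Their log2 fold changes were -0.11 (standard error 0.14), -0.081 (standard error 0.13) and -0.17 (standard error 0.18) in that order, each no larger than its error, and 0.11, 0.14 and 0.055 with scaling by library size.

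**Figure D2:**
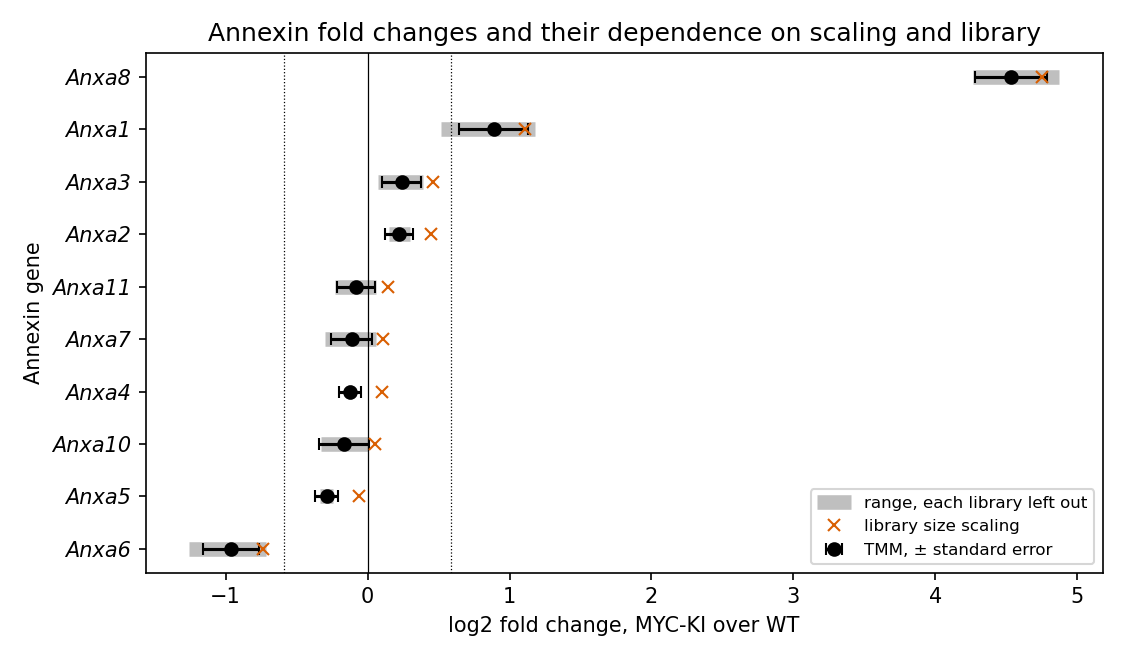
Log2 fold change of each annexin gene, transgenic over WT, after TMM scaling (black, with the standard error), with scaling by library size (crosses), and its range when each library is left out (grey), with dotted lines at the fold threshold of 1.5. *Anxa8* lies at 4.53, *Anxa1* at 0.89 and *Anxa6* at -0.96, while *Anxa4*, *Anxa7*, *Anxa10* and *Anxa11* lie below 0 after TMM scaling and above 0 with library size.

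Over the family all 10 members passed the filter on low counts. The genotypes did not overlap, with transgenic mice higher, in 4 of the 10 members (*Anxa1*, *Anxa2*, *Anxa3* and *Anxa8*), beside 33.3% of the 17643 genes tested. They did not overlap, with transgenic mice lower, in 3 of the 10 (*Anxa4*, *Anxa5* and *Anxa6*), beside 31.5% of all genes. Both shares are near those of all genes. The median log2 fold change of the members was -0.096, against 0.012 over all tested genes. With the thresholds of the study's methods, a false discovery rate of 0.05 and a change of more than 1.5-fold, edgeR called 1 member higher, *Anxa8*, beside 5.65% of all genes. It called 0 members lower, beside 5.08% of all genes, while without adjustment 1 member, *Anxa6*, passed 0.05 and the fold threshold in this direction, beside 11.3% of all genes, and 2 passed in the other, beside 10.7%. DESeq2 called *Anxa1* and *Anxa8* higher, beside 5.62% of 26731 genes, and *Anxa6* lower, beside 6.48%. When either WT library was left out, edgeR called no gene of the whole table.

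Levels of different annexins were compared per length, as normalized CPM per kb of all annotated exons (GENCODE vM21). In WT *Anxa10* stood highest, at 447.8 and 564.8 normalized CPM per kb. It was followed by *Anxa2* (100.4 and 106.6), *Anxa5* (87.1 and 93.1) and *Anxa4* (75.4 and 76.99), whose libraries did not overlap from one gene to the next. *Anxa3* came next with 43.7 and 47.1. The following *Anxa6* (38.7 and 39.1) and *Anxa7* (36.2 and 37.9) both overlapped *Anxa1* (39.9 and 35.5), which stood between them by its mean, and did not overlap each other. *Anxa11* (19.2 and 21.5) and *Anxa8* (3.63 and 2.38) closed the order.

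In *Atp4b-cre;MycOE* mice *Anxa10* and *Anxa2* held the first places in normalized CPM per kb, at 403.9 and 497.0 and at 114.6 and 127.1. *Anxa8*, last in WT, reached 75.2 and 64.3 normalized CPM per kb. In transgenic mice it overlapped *Anxa5* (74.0 and 73.8), *Anxa4* (70.3 and 69.8) and *Anxa1* (54.0 and 85.5). *Anxa3*, at 47.7 and 59.6, overlapped *Anxa1* as well, and *Anxa7* had 30.1 and 38.5. *Anxa6* was at 16.3 and 23.7 and overlapped *Anxa11* (17.3 and 21.1) at the low end. The order depends on the annotated exon length, which counts every isoform, such as 5.99 kb for *Anxa7*.

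Summed over the 10 members, annexin expression was 892 and 1025 normalized CPM per kb in WT and 903 and 1060 in transgenic mice, so the totals overlapped. The make-up differed. *Anxa8* made up 0.407% and 0.232% of the sum in WT and 8.33% and 6.07% in transgenic mice. *Anxa10* made up 50.2% and 55.1% in WT and 44.7% and 46.9% in transgenic mice. *Anxa1* held 4.47% and 3.46% in WT and 5.98% and 8.06% in transgenic mice, and *Anxa6* 4.34% and 3.82% against 1.80% and 2.24%. Without *Anxa10* the sum was 444.2 and 460.2 normalized CPM per kb in WT and 499.5 and 563.4 in transgenic mice.

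**Figure D3:**
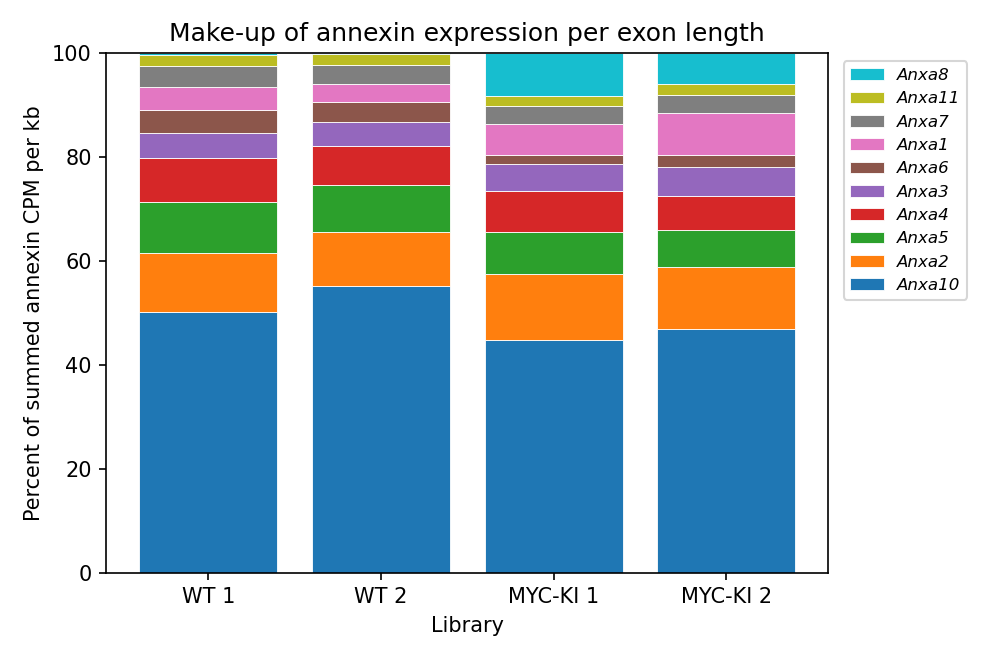
Share of each annexin gene in the summed normalized CPM per kb of the 10 members, 1 bar per library. *Anxa10* holds 44.7% to 55.1% of the sum in every library, and the *Anxa8* segment at the top grows from 0.407% and 0.232% in WT to 8.33% and 6.07% in transgenic mice.

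Genes that work with annexins were read from a list of 28, chosen with earlier results of these data known. Of these, 26 were tested with edgeR's quasi-likelihood test and Benjamini-Hochberg adjustment over all genes. It called 2 of them higher in *Atp4b-cre;MycOE* mice and 0 lower, beside the 5.65% and 5.08% of all genes. Without adjustment 6 of the 26 passed 0.05 and the fold threshold in either direction, a share near the 22.0% of all genes. DESeq2 called 3 of 28 higher (*Plaur*, *Plscr1* and *S100a6*) and 3 lower (*Plat*, *Dysf* and *Pef1*), beside its own 5.62% and 6.48% of all genes. *Plaur*, the receptor of urokinase in the plasminogen system that annexin A2 serves, rose from 13.4 and 19.1 to 32.5 and 42.8 normalized CPM (log2 fold change 1.21, edgeR adjusted p = 0.0485). *Plscr1*, a phospholipid scramblase, rose from 43.7 and 50.8 to 95.6 and 73.2 (log2 fold change 0.84, edgeR adjusted p = 0.0480). By edgeR both calls are at the edge of the threshold, with adjusted p-values of 0.0501 and 0.0509 under the size factors of DESeq2. With the replicate block edgeR gave *Plaur* and *Plscr1* 0.0553 and 0.0995. It gave 0.0259 and 0.0235 with library size scaling, and 0.00976 and 0.00955 with no filter on low counts. The adjusted p-values of DESeq2 itself were 0.000184 and 0.000787. Without WT replicate 1 and without WT replicate 2 the edgeR adjusted p-values were 0.230 and 0.236 for *Plaur* and 0.256 and 0.246 for *Plscr1*. Without transgenic replicate 2 *Plaur* was at 0.0693, and without transgenic replicate 1 *Plscr1* was at 0.0593.

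Among the 5 S100 partners none was called by edgeR. *S100a11*, whose product binds the tail of annexin A1 and which is named here after its values were seen, had 126.9 and 127.2 normalized CPM in WT and 179.1 and 197.3 in *Atp4b-cre;MycOE* mice. Its log2 fold change of 0.57 (edgeR adjusted p = 0.0329) was under the fold threshold. It passed with library size scaling (0.79) and without transgenic replicate 1 (0.64), and without either WT library its adjusted p was 0.219 and 0.246. *S100a6*, the most abundant of the 5, had 295.0 and 364.0 in WT and 472.1 and 615.5 in transgenic mice (log2 fold change 0.72, adjusted p = 0.0737 from edgeR). *S100a10*, the partner of *Anxa2* and also named after its values were seen, had 82.6 and 73.2 in WT and 66.4 and 64.7 in transgenic mice (log2 fold change -0.25, adjusted p = 0.148 from edgeR).

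In the other partner groups edgeR made no further call. *Ahnak*, a scaffold bound by the annexin A2 complex, had 1307 and 1486 normalized CPM in WT and 690 and 1132 in transgenic mice (log2 fold change -0.62, adjusted p = 0.189 from edgeR). The formyl peptide receptors *Fpr1* and *Fpr2*, through which annexin A1 signals, had 0 to 8 counts per library and were not tested. *Pla2g4a*, the cytosolic phospholipase that annexin A1 restrains, had a log2 fold change of -0.11 (adjusted p = 0.734 from edgeR). None of 11 genes of membrane repair and calcium-binding partners was called by edgeR, while DESeq2 called *Dysf* and *Pef1*, *Pdcd6ip* with -0.11 (adjusted p = 0.428 from edgeR) being the most abundant. Beside *Plscr1*, the scramblase *Ano6* had -0.28 (adjusted p = 0.222 from edgeR).

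Markers of the cell types that a stomach sample can hold were read beside the members, with calls by edgeR. DESeq2 called 34 of these markers in place of 28, the added ones being *Ivl* and *Cpa3* (higher) and *Cel*, *Col1a2*, *Dcn* and *Lrrn4* (lower). Squamous markers of the forestomach, 10 genes led by *Krt13* and *Krt4*, summed to 2401 and 1394 normalized CPM in WT and to 870 and 4157 in *Atp4b-cre;MycOE* mice, and none was called. Of these, *Krt14* and *Ivl*, named after their values were seen, lay higher in both transgenic libraries than in either WT library, beside 33.3% of all genes tested. *Krt14* had 98.2 and 69.7 normalized CPM in WT and 102.5 and 360.3 in transgenic mice. *Anxa8* was at 141.4 normalized CPM in transgenic replicate 1, where the squamous sum was the lowest of all libraries, and at 121.0 in replicate 2, where it was the highest. By their means over all libraries *Krt13* and *Krt4* are the largest parts of the sum, with log2 fold changes of 0.19 and 0.072. The log2 fold change was above 0 in 10 of the 10 markers, with a median of 1.11 against 0.0122 over all tested genes, and *Ivl* had 4.59 and 2.47 normalized CPM in WT and 14.3 and 9.34 in transgenic mice. *Anxa1* was higher in transgenic replicate 2, as were 9 of the 10 squamous markers, all but *Ivl*, and in replicate 1 it was also above both WT libraries. The part of squamous tissue in the differences of *Anxa8* and *Anxa1* was not tested.

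Surface mucous markers (*Gkn2*, *Gkn1*, *Muc5ac* and *Tff1*) were called lower in 4 of 4 cases, from a sum of 44900 and 53560 normalized CPM to one of 10960 and 17190. *Anxa10* overlapped between the genotypes in the same libraries. Parietal markers, led by *Atp4a* and *Atp4b*, were called lower in 5 of 5 cases, with sums of 10610 and 10760 in WT and 255.0 and 306.3 in transgenic mice. Of 5 chief cell markers, led by *Pgc* and *Chia1*, 4 were called lower, and the sum went from 84860 and 80510 to 1198 and 1518. Of 5 pancreatic acinar markers, led by *Clps* and *Cel*, 1 of the 2 tested was called lower, the sum went from 156.2 and 127.3 to 5.04 and 6.45, and *Cpa1* and *Prss2* had 0 counts in every library. Mucous neck and metaplasia markers, led by *Tff2* and *Muc6*, summed to 10180 and 12540 in WT and to 20330 and 9084 in transgenic mice, and 1 of 5, *Wfdc2*, was called higher. The part of the lower parietal and chief cell RNA in the shares of other transcripts, the annexins among them, was not tested.

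Of the stromal lists, endothelial markers led by *Pecam1* and *Kdr* were called lower in 5 of 5 cases, with sums of 359.8 and 343.5 normalized CPM in WT and 138.3 and 129.7 in transgenic mice. Fibroblast markers led by *Col3a1* and *Col1a2* were called lower in 3 of 5, with sums of 2275 and 2570 against 670.3 and 1151. Smooth muscle markers led by *Myh11* and *Acta2* had 0 of 5 called, with sums of 6951 and 4426 against 2246 and 4849. *Anxa6* moved with the endothelial and fibroblast lists, and its lower transgenic library, replicate 1, was also the lower one for fibroblasts and smooth muscle but not for the endothelial list. The surface mucous, parietal and chief cell sums were lower in transgenic mice too, and also lower in transgenic replicate 1 than in replicate 2, so this pattern is not particular to the stromal lists. The chief cell sum is almost all *Pgc*, and the other 4 chief markers were higher in replicate 1. The part of any of these cell types in the difference of *Anxa6* was not tested.

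Leukocyte markers led by *Lyz2* and *Ptprc* had 2 of 7 called lower and 0 higher, with sums of 180.9 and 184.4 normalized CPM in WT and 80.0 and 80.5 in transgenic mice. *Lyz2* alone, at 139.6 and 138.9 in WT and 45.02 and 47.12 in transgenic mice, made up most of this sum, and the median log2 fold change of the list was -0.040, with 3 of the 7 above 0. *Anxa1*, abundant in leukocytes, was higher in the same libraries. Mast cell markers led by *Kit* and *Mcpt1* had 3 of 5 called higher, with sums of 69.9 and 92.4 against 227.2 and 235.3. *Kit* itself was not called and had 57.1 and 64.2 in WT and 56.05 and 53.4 in transgenic mice. The sums moved with *Anxa1* and *Anxa8*, and their part in either difference was not tested. Mesothelial markers led by *Upk3b* and *Msln* summed to 3.31 and 11.01 normalized CPM in WT and to 1.92 and 2.42 in transgenic mice, with 0 of 4 called.

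**Figure D4:**
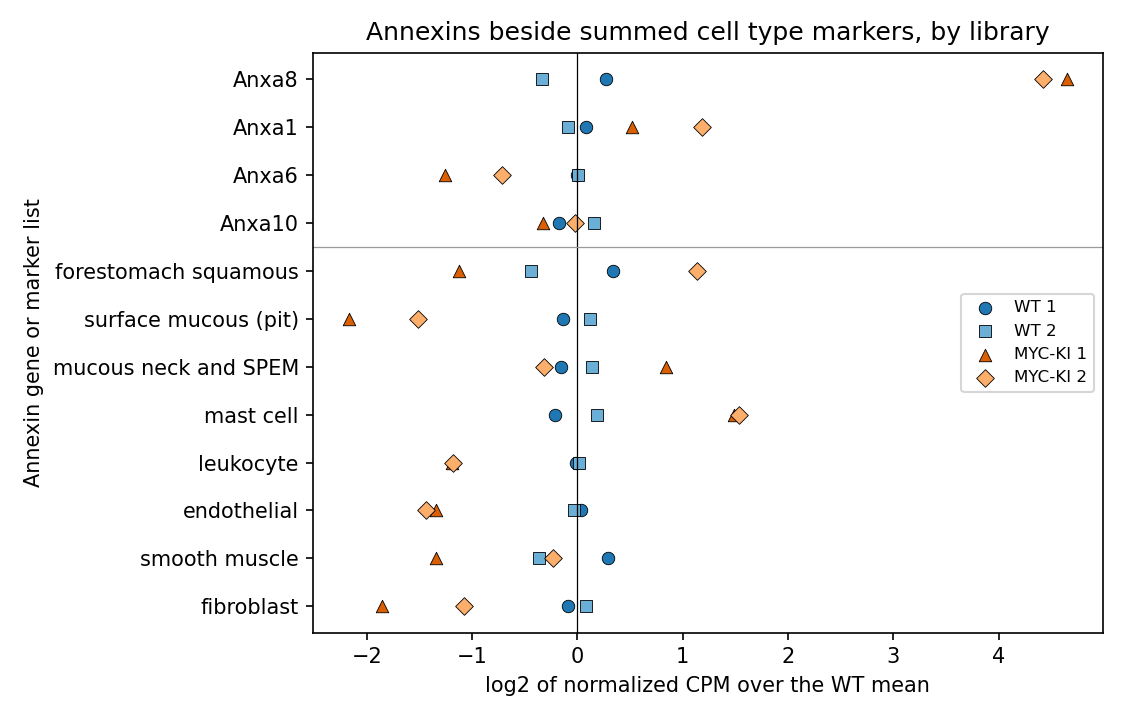
Log2 of the normalized CPM of *Anxa8*, *Anxa1*, *Anxa6* and *Anxa10*, and of the summed normalized CPM of 8 marker lists, each over its WT mean, 1 point per library. *Anxa8* is far to the right in both transgenic libraries while the squamous sum is lowest in one of them and highest in the other. *Anxa6* lies to the left in both, as do the endothelial, fibroblast, smooth muscle, surface mucous and leukocyte sums.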

How the data were processed

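The authors deposited raw counts of reads per gene symbol, 1 column per library. The submitters' processing notes name HISAT2 and mm10, and the counting tool, its use of strand and the annotation are not given in the sources used here. In the deposited table the names of the transgenic columns were re-assigned, the nth count going to the nth name in character-code order, a step that uses no count value. The 2 WT and 2 transgenic libraries were compared in R 4.3.3 by the quasi-likelihood test of edgeR 4.0.16, after TMM scaling and filterByExpr, with Benjamini-Hochberg adjustment over 17643 genes. The study's methods use DESeq2, and version 1.42.0 was run as an alternative. Standard errors are the absolute log2 fold change over the square root of F. The tests were checked on simulated counts. Exon lengths and loci are from GENCODE vM21, on GRCm38 as mm10, and promoters from RefSeq for GRCm38.p6. The members and all lists were chosen with earlier results of these data known. Genes named are all members, called partners, the most abundant uncalled partner of each group and the 2 most abundant markers of each list, and further partners and markers, such as *Fpr1*, *Ivl* and *Cpa1*, were named after their values were seen. The alternatives were the deposited table, other scalings, filters and thresholds, a replicate block and leaving out each library.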

Additional observations from a re-analysis of the deposited data

How the results depend on the processing

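With 2 libraries per genotype, leaving 1 out assumes that the lone library varies like the other genotype. The table as deposited gave 18580 calls in place of 1892, with 10 members, 21 partners and 52 markers called, and turned the log2 fold changes of *Anxa8* (-10.59), *Anxa1* (-2.18), *Anxa2* (-1.96) and *Anxa3* (-0.78). DESeq2 called 3234 genes, 3 members and 6 partners, and library size scaling called 3011 genes (75.5% of them higher, against 52.6%), 2 members and 4 partners. The replicate numbers are not stated to pair animals, and over 17643 genes the deviations of the same-numbered libraries correlated at 0.067. With the replicate block 114 genes (23.7% of them higher), 1 member, 0 partners (8 before adjustment) and 10 markers were called. Without the fold threshold edgeR called 2274 genes, 1 member and 3 partners. The other alternatives gave 2 members and 0 partners (size factors of DESeq2 in edgeR, with 6 partners past 0.05 and the fold threshold before adjustment), 3 members and 4 partners (no filter on low counts) and 2 members (at least 10 counts in every sample). Leaving out each library gave 0 to 2470 calls, 0 to 3 members, 0 to 4 partners and 0 to 35 markers. The 0 came without WT replicate 1 or 2, where edgeR had 2892 and 2738 genes past 0.05 and the fold threshold before adjustment and DESeq2 was not run. The causes were not tested. Apart from the deposited table, *Anxa8*, *Anxa1*, *Anxa2*, *Anxa3*, *Anxa5* and *Anxa6* kept their direction under every alternative. *Anxa7* and *Anxa11* changed sign without transgenic replicate 1, *Anxa10* did so without WT replicate 2, and these and *Anxa4* did so with library size.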

Other observations

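The table holds 2 further annexin rows, outside the 10 genes described above. *Anxa13*, an intestinal annexin of the apical membrane, had 35.1 and 8.32 normalized CPM in WT and 25.4 and 4.54 in *Atp4b-cre;MycOE* mice, so the libraries within a genotype differed more than the genotype means did (log2 fold change -0.54, edgeR adjusted p = 0.756). The intestinal markers *Vil1*, *Cdh17*, *Cdx1*, *Cdx2* and *Muc2* summed to 511.9 and 315.9 normalized CPM in WT and to 577.2 and 211.8 in transgenic mice, again with replicate 1 above replicate 2 in both genotypes. *Cdh17*, an intestinal cadherin, was at 136.6 and 38.1 in WT and at 168.7 and 9.29 in transgenic mice. None of these 5 markers was called by edgeR, at an adjusted p-value or at an unadjusted p-value under 0.05. *Anxa9* was low, at 10.5 and 7.92 normalized CPM in WT and 7.43 and 16.3 in transgenic mice (log2 fold change 0.36, edgeR adjusted p = 0.602).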
